A study of Homo sapiens with 3 samples.

Results

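The region described here is the large satellite block on the long arm of chromosome 9 with the duplicated sequence at its edges, in U2OS cells, a human osteosarcoma line. It was taken by position on T2T-CHM13, a gapless human assembly, as 40 to 45 Mb and 47.6 to 81 Mb of chromosome 9, which leaves out the active centromeric array from 45 to 47.6 Mb. Peaks belonged to the region when their midpoint lay in it. This gave 10086 of the 181157 peaks in the control list and 8177 of the 105729 peaks in the siORCA list. Both lists are broad peaks of H3K27me3, the mark of histone H3 that Polycomb repressive complex PRC2 lays down, measured by ChIP-seq. The control library came from cells transfected with a control (Gl3) and the siORCA library from cells transfected with siORCA, which targets ORCA, a protein bound to the origin recognition complex. Both transfections were made in the same line, and whether they shared a batch was not established. The labels give no clone, time after transfection or measure of the knockdown. With 1 library per condition, no difference below has a replicate check and none was tested. By its title, the study asks how ORCA, through Polycomb complexes, bears on genome architecture and replication timing.

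The block on chromosome 9 is built of human satellite 3, a short simple repeat copied head to tail over many megabases. Such blocks form constitutive heterochromatin, which is best known for the histone mark H3K9me3 and for replicating late in S phase, whereas H3K27me3 is best known from silenced developmental genes. The block differs in length between people and is the site of a common inversion. The sequence at its edges holds recent copies of gene families, among them FOXD4L (forkhead transcription factors), ANKRD20A (ankyrin repeat proteins), SPATA31A (named for spermatogenesis) and CNTNAP3 (a contactin-associated cell adhesion protein). The RefSeq gene table on GRCh38.p14 lists 4, 6, 5 and 12 symbols of these families on chromosome 9. That assembly differs from the one of the files, so peaks were not tied to these genes, to exons or to repeats, and no sequence is shown.

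The region was divided at round positions that come from general knowledge of the assembly and from no annotation file. The short-arm edge ran from 40 to 45 Mb, the proximal edge from 47.6 to 50 Mb, the inner block from 50 to 76 Mb, and the distal edge from 76 to 81 Mb. Coverage is the share of a stretch that lies under peaks. The authors' fold, the enrichment of a peak over its background, is used to describe peaks within a list. As an alternative limit, both lists were also cut at a fold of 3. The median fold was 2.73 in the control list and 3.29 in the siORCA list, so that limit removes a larger share of the control list. The sources used here give neither the read depths nor the handling of reads that align to many repeats, and the part of either in the results was not tested. Over all 23 chromosomes, control peaks covered 6.77% and siORCA peaks 3.03%, so that siORCA coverage was 0.447 of the control. Lower coverage as such is therefore not particular to chromosome 9.

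Peaks of the inner block were many, short and scattered in both lists. Of its 26 Mb, control peaks took up 6.17 Mb (23.7%) and siORCA peaks 2.89 Mb (11.1%), so the siORCA coverage was 0.468 of the control coverage. Below, this quotient is called the ratio. The control had 338 peaks per Mb there, against 59.3 over all chromosomes, and siORCA had 263 against 34.6. The inner block makes up 0.851% of the chromosome length and held 4.85% of the control peaks and 6.48% of the siORCA peaks. It held 2.99% and 3.12% of the covered length, so both lists placed a like share of their coverage in it. Peaks in it were shorter than those of the whole lists: the median control width was 424 bp, against 515 bp in the whole list, and the median siORCA width 335 bp, against 414 bp. Peaks of at least 2 kb held 29.9% of the peak length in the control (529 peaks) and 4.49% in siORCA (48 peaks). In the whole lists these shares were 53.5% and 44.7%, and the siORCA peaks of the inner block thus included few wide ones.

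The inner block was covered over far less of its length than the satellite blocks of chromosomes 1 and 16, which consist mainly of human satellite 2. The chromosome 1 block, taken as the 12 Mb from 130 Mb on, had 99.7% of its length under control peaks and 99.3% under siORCA peaks, with 77 and 177 peaks. On chromosome 16, from 40 to 52 Mb, these shares were 73.4% and 54.4%, with 4495 and 6274 peaks. The ratio came to 0.996 on chromosome 1 and 0.741 on chromosome 16, against 0.468 in the inner block of chromosome 9. The active array interval next to it, from 45 to 47.6 Mb, was covered over 72.1% and 56.9%, a ratio of 0.789. The arms of chromosome 9, outside the region and this interval, were covered over 3.30% and 0.768%, a ratio of 0.232. With all peaks used, coverage of the inner block therefore lay between that of the arms and that of the other repeat arrays, and so did its ratio. The chromosome 1 block was nearly full in both lists, where a ratio of covered length can show little. The inner ratio went from 0.134 to 0.764 with the limit on peaks, and the other stretches were not computed under those limits.

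**Figure D1:**
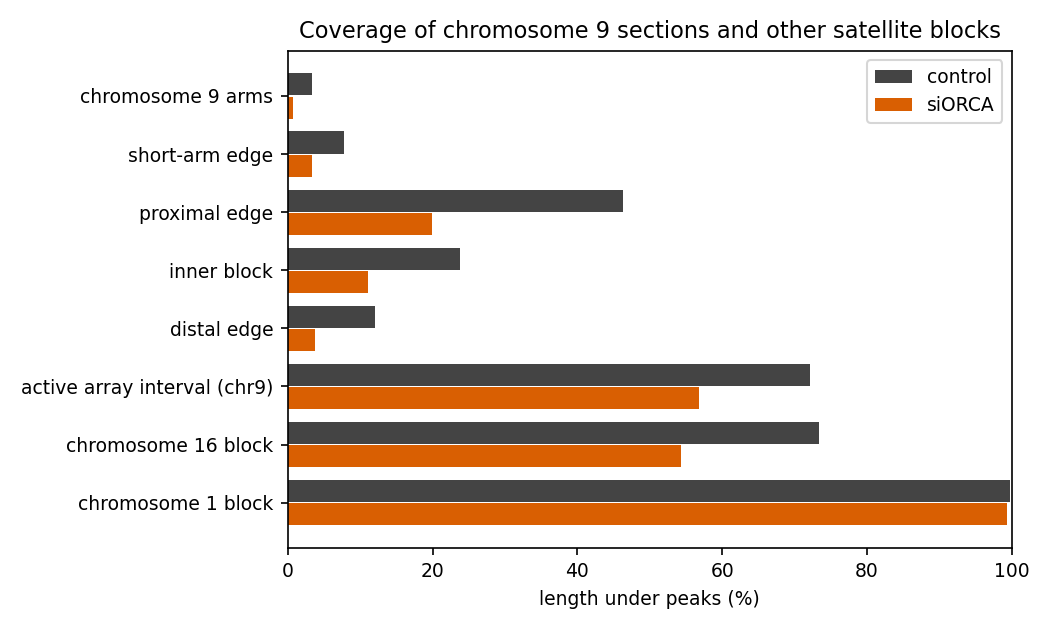
Horizontal bars give the share of each stretch under H3K27me3 peaks (percent) in the control (grey) and siORCA (orange) lists, 1 library each, with no error bars. The inner block (23.7% and 11.1%) lies far below the blocks of chromosome 16 (73.4% and 54.4%) and chromosome 1 (99.7% and 99.3%).

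Along the inner block, coverage rose and dipped over several megabases in both lists, largely but not wholly at the same places. Over its 260 bins of 100 kb, control coverage ranged from 0.306% to 84.1% with a median of 19.5%, and siORCA coverage from 0.325% to 48.7% with a median of 9.62%. The same bin, from 73 to 73.1 Mb, was the highest in both lists. Pearson's r between the lists was 0.888 over 260 bins of 100 kb, 0.705 over 2600 bins of 10 kb and 0.920 over 26 bins of 1 Mb. These are descriptions, since bins of 2 libraries share the local sequence and its mappability. By megabase, the 4 highest control values were at 64 to 65 Mb (53.4%), 75 to 76 Mb (44.6%), 73 to 74 Mb (38.7%) and 62 to 63 Mb (37.8%). The siORCA values there were 14.8%, 17.3%, 16.7% and 18.2%. The highest control megabase, 64 to 65 Mb, was no crest in siORCA, where the next megabase had 16.6%. Low stretches of both lists lay at 59 to 60 Mb, with 8.69% in the control and 5.32% in siORCA, and at 69 to 70 Mb, with 8.06% and 5.12%. The profile was flatter in siORCA, with lower values at these control crests and values nearer to the control in these troughs.

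**Figure D2:**
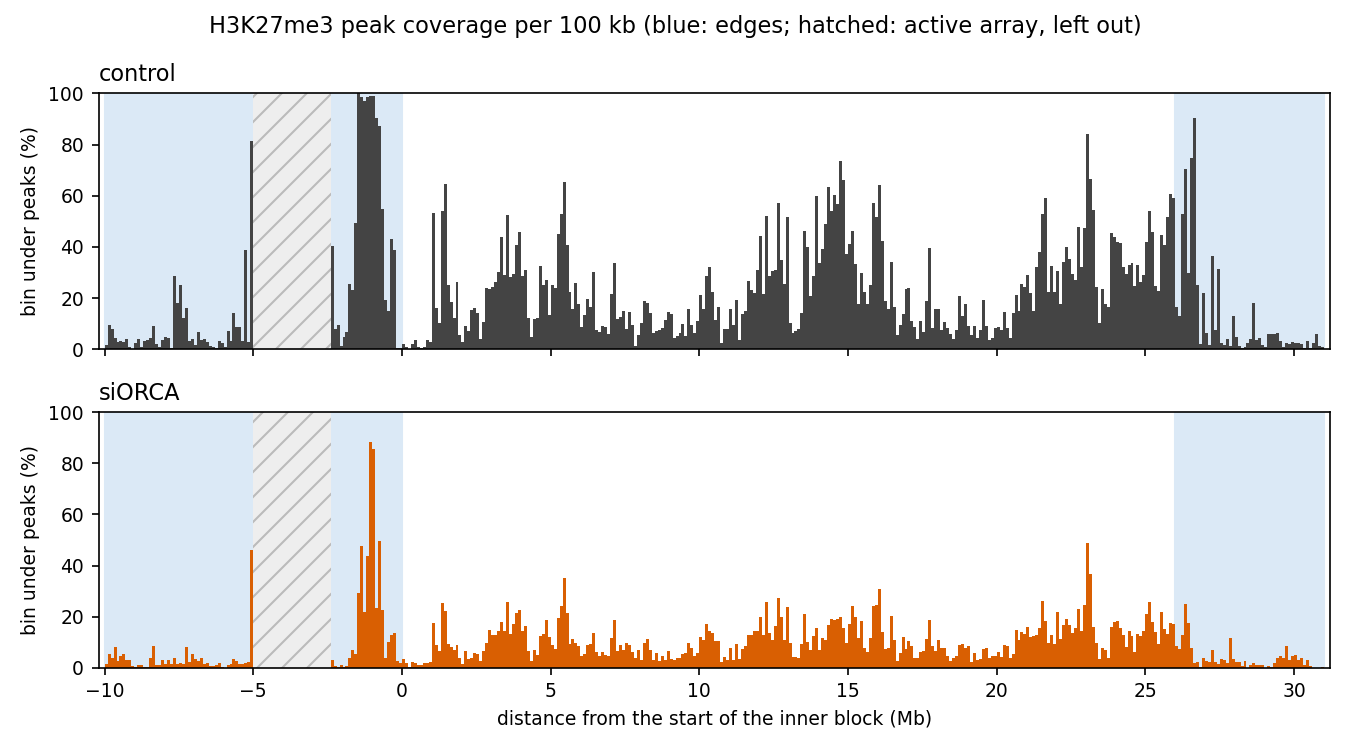
Bars give the share of each 100 kb bin under H3K27me3 peaks (percent) against the distance from the start of the inner block (Mb), for the control (top) and siORCA (bottom), 1 library each; blue marks the edges and hatching the active array interval, which is left out. Both lists show a nearly empty stretch at the start of the inner block and a dense stretch just before it; the highest megabase of the inner block is 64 to 65 Mb for the control (53.4%) but 62 to 63 Mb for siORCA (18.2%).

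The start of the block was sharply divided. From 49.8 to 51 Mb, over 1.2 Mb, both lists were nearly empty, with 18.2 kb covered in the control (58 peaks) and 22.3 kb in siORCA (82 peaks). The 3 widest gaps between peaks of the inner block lay in this stretch in both lists. In the control they were 97.95, 76.7 and 71.3 kb wide, and in siORCA 72.3, 61.9 and 48.5 kb. Coverage then changed within a single step of 100 kb, from 2.79% to 53.4% in the control and from 2.10% to 17.5% in siORCA at 51 Mb. Of the few bases covered in the nearly empty stretch, 9.22% of those in the control were also covered in siORCA. This stretch was singled out after its values had been seen.

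The largest coverage differences within the inner block lay on 1 crest. A run of 14 bins from 63.9 to 65.3 Mb, each at least 30% covered in the control, averaged 50.995% there and 16.1% in siORCA (ratio 0.315). The bin from 64.7 to 64.8 Mb had the largest drop, from 73.5% to 19.8%, followed by the bins from 64.8 to 64.9 Mb (66.0% and 15.6%) and from 64.3 to 64.4 Mb (63.5% and 16.9%). The control peaks there ran together: joining peaks at most 3 kb apart gave a stretch of 334.9 kb with 166 peaks from 64611665 to 64946549, of which 17.2% was covered in siORCA. A crest of like height kept more of its coverage. The 6 bins from 72.7 to 73.3 Mb averaged 55.4% and 27.1%, for a ratio of 0.490. The longest joined stretch of the inner block lay there in both lists, from 72919351 to 73268194 in the control (348.8 kb, 152 peaks) and from 73015330 to 73126998 in siORCA (111.7 kb, 62 peaks). The siORCA stretch lay wholly within the control one.

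Counted by bin with all peaks used, a smaller share of the inner block than of the genome showed a large drop, a difference that was not tested. A bin was counted when at least 5% of it was covered in the list where it was higher, and it was called lower or higher in siORCA when the lists differed at least 2-fold. Over all chromosomes 8245 bins were counted, of which 76.6% were called lower and 2.33% higher. In the inner block 131 of 237 counted bins (55.3%) were called lower and 0 higher. This rests on the limits used. With only peaks at a fold of 3 or more, which removed a larger share of the control list, 25 of 206 were called lower and 31 higher. With equal numbers of peaks in both lists, 65 of 220 were called lower and 6 higher. With only peaks at a −log10 q of 2 or more, 169 of 171 were called lower, and with at least 20% covered 94 of 129. The share over all chromosomes was not counted under these other limits, so the comparison with the genome was made at the main setting only. The median ratio of the counted bins was 0.484 in the inner block, with 10th and 90th percentiles of 0.315 and 0.712, against a median of 0.135 over all chromosomes. At the edges 44 of 61 counted bins (72.1%) were called lower, a share near that of all chromosomes, and 3 were called higher. Of the 260 inner bins, 16 had a siORCA value above the control value, the largest difference being at 57.8 to 57.9 Mb (1.46% and 3.995%).

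**Figure D3:**
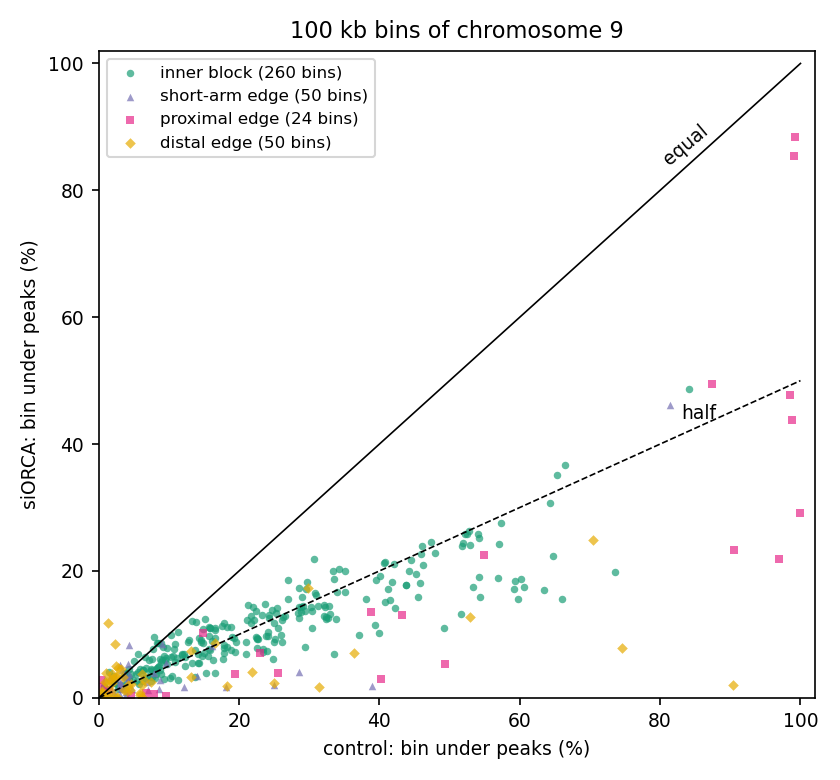
Each point is a 100 kb bin, with control coverage (percent) on the horizontal axis and siORCA coverage (percent) on the vertical axis; colours and shapes mark the 4 sections, the solid line equal coverage and the dashed line a ratio of 1 to 2. Inner bins lie along a narrow band near the dashed line that bends downward at high control coverage. Edge bins scatter from near 0 to above the solid line, with 30 of 124 above it.

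The ratio in the inner block went down from each class of control coverage to the next, while over the other bins it was lowest at 5 to 10% and went up from there. In inner bins covered under 5% in the control, the mean siORCA coverage was 0.926 of the control mean (23 bins), against 0.300 in the bins outside the region (22386 bins). In inner bins covered over 5 to 10% in the control, the mean siORCA coverage was 0.670 of the control mean (46 bins). The value was 0.541 at 10 to 20% (62 bins), 0.461 at 20 to 40% (79 bins), 0.414 at 40 to 60% (40 bins) and 0.392 at 60% and above (10 bins). Over all bins outside the region the values in these classes from 5% up were 0.182, 0.251, 0.397, 0.626 and 0.648. The inner block was thus above the other bins at low control coverage and below them at high control coverage. Since the control value both sorts the bins and enters the ratio, the classes were also made by the mean of the 2 lists. The inner values were then 0.791 under 5%, 0.593 at 5 to 10%, 0.503 at 10 to 20%, 0.429 at 20 to 40% and 0.419 at 40% and above. In the other bins they were 0.193, 0.227, 0.237, 0.397 and 0.784. Sorted this way, the other bins were lowest under 5%, so their low point at 5 to 10% was not kept. The order between the inner block and the other bins held in both ways of sorting. The bins at high coverage outside the region include the blocks of chromosomes 1 and 16.

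**Figure D4:**
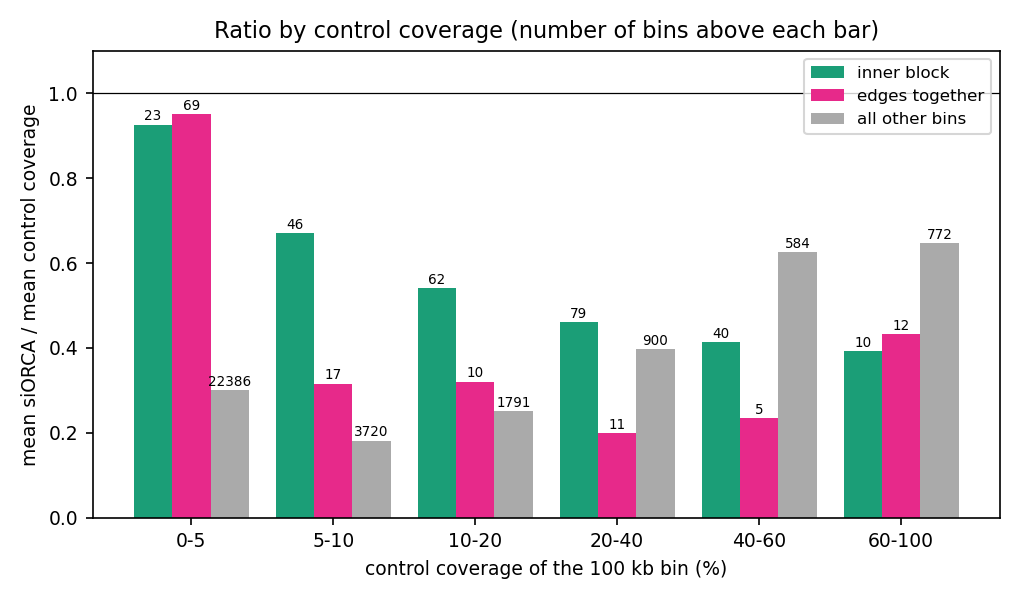
Bars give the mean siORCA coverage divided by the mean control coverage of 100 kb bins, in classes of control coverage (percent, horizontal axis), for the inner block, the edges and all bins outside the region, with the number of bins above each bar and no error bars. The inner block goes from 0.926 under 5% down to 0.392 at 60% and above, and the bins outside the region from 0.300 under 5% to 0.182 at 5 to 10% and then up to 0.648.

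Of the edges, 12.4 Mb together, control peaks covered 2.10 Mb (16.9%) and siORCA peaks 0.840 Mb (6.77%), a ratio of 0.400. They held nearly equal numbers of peaks, 1300 and 1328, so the smaller siORCA length went with narrower peaks. Control peaks at the edges had a mean width of 1616 bp and siORCA peaks one of 632 bp. The medians lay closer, at 486 and 357 bp, since 57 control peaks of at least 5000 bp held 1.19 Mb. In the inner block both number and mean width were lower in siORCA, with 8786 and 6849 peaks and mean widths of 703 and 422 bp. The proximal edge had more peaks in siORCA (520) than in the control (387), while its coverage was 19.9% in siORCA against 46.3% in the control (ratio 0.431). The distal edge had 517 and 461 peaks, 12.1% and 3.83% covered and the lowest ratio of the 4 sections, 0.317. The short-arm edge had 396 and 347 peaks, with 7.72% and 3.39% covered and a ratio of 0.439.

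The proximal edge held a dense stretch of 1 Mb from 48.4 to 49.4 Mb, with 87.5% of it under control peaks and 41.7% under siORCA peaks. Bin by bin from 48.4 Mb, control coverage was 49.3%, 100%, 98.6%, 97.0%, 98.8%, 99.2%, 99.05%, 90.5%, 87.3% and 54.9%. In siORCA the same bins had 5.36%, 29.2%, 47.7%, 21.9%, 43.8%, 88.5%, 85.4%, 23.3%, 49.4% and 22.4%. The bins from 48.9 to 49.1 Mb were thus nearly filled in both lists, and the other bins from 48.5 to 49.3 Mb were covered over at least 87.3% in the control and at most 49.4% in siORCA. The control plateau was a joined stretch of 741.4 kb in 40 peaks from 48436397 to 49177816, and it held the widest control peak of the region, 154.5 kb from 48483021 to 48637503, with a fold of 3.43. Within it siORCA had its own longest joined stretch of the region, 236.2 kb in 52 peaks from 48882867 to 49119101, and control peaks covered 99.2% of that. Its widest peak ran from 49000328 to 49056761 (56.4 kb, fold 4.18 in the siORCA list). Bases under both lists made up 98.2% of the siORCA length and 46.8% of the control length in the dense stretch. Between this stretch and the centromeric side, from 47.6 to 48.4 Mb, coverage was 14.9% in the control and 2.11% in siORCA.

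The distal edge held the bin with the largest drop of the region. From 76.6 to 76.7 Mb, control coverage was 90.4% and siORCA coverage 2.01%. The bin before it, from 76.5 to 76.6 Mb, had 74.6% and 7.80%. The control peaks there formed a joined stretch of 179.5 kb in 23 peaks from 76516588 to 76696072, of which 4.70% was covered in siORCA. Its widest peak, 61.4 kb from 76609287 to 76670657, had a fold of 3.06 in the control and 2.80% of its length covered in siORCA. The median fold of the control peaks from 76.5 to 76.7 Mb was 3.05, against 2.76 over the distal edge and 2.73 in the whole control list, so the control peaks there ranked above the middle of that list. Past this stretch coverage dropped to 2.20% in the control and 0.139% in siORCA from 76.8 to 76.9 Mb. From 76.8 to 81 Mb it was 5.51% and 2.58%, with a ratio of 0.468, against 0.223 from 76 to 76.8 Mb. The part with the lower ratio holds the stretch from 76.5 to 76.7 Mb, whose ratio was 0.0595. The bins nearest the block had ratios of 0.525 (76 to 76.1 Mb) and 0.559 (76.1 to 76.2 Mb). Low ratios also lay past 76.8 Mb, such as 0.194 from 77.2 to 77.3 Mb and 0.0524 from 77.4 to 77.5 Mb. The ratio thus did not follow the distance from the block bin by bin.

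In the opposite direction, the 3 edge bins called higher in siORCA were all in the distal edge. They lay from 77.8 to 77.9 Mb (1.34% in the control and 11.8% in siORCA), from 79.7 to 79.8 Mb (2.39% and 8.52%) and from 80 to 80.1 Mb (2.47% and 5.08%). They make up 13.04% of the 23 counted bins of the distal edge, against 2.33% over all chromosomes, and with 3 bins this is a description of these lists. Each was under 5% covered in the control, so it was counted only through its siORCA value. At a −log10 q of 2 or more, or with at least 20% covered, 0 edge bins were called higher. At a fold of 3 or more 4 of 39 were, and with equal numbers of peaks 6 of 50.

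On the short-arm edge, coverage was thin apart from its centromeric end and a few patches. Its last bin, from 44.9 to 45 Mb, had coverages of 81.4% (control) and 46.2% (siORCA). This bin held a control peak from 44898838 to 44942341 (43.5 kb) with a fold of 9.66, the highest among peaks of the region in the control list, and 88.0% of it was covered in siORCA. The siORCA peak there, from 44900736 to 44938497 (37.8 kb), lay wholly inside it and had a fold of 5.30. A neighbouring patch behaved otherwise: the control stretch from 44714574 to 44777435 (62.9 kb, 29 peaks) was covered over 0.918% in siORCA. A patch from 42.3 to 42.8 Mb had 20.01% of its length under control peaks and 3.51% under siORCA peaks. Without the last bin, the short-arm edge was covered over 6.21% and 2.51%, and the share of control bases also covered in siORCA went from 22.04% to 12.99%.

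The limits of the region cut through dense coverage on the centromeric side only. Just outside and just inside the limit at 45 Mb, control coverage was 69.3% and 81.4%, and siORCA coverage 40.7% and 46.2%. At 47.6 Mb the outer and inner bins had 72.7% and 40.2% in the control, and 36.7% and 2.92% in siORCA. At 40 Mb they had 0.867% and 1.69% in the control, and 1.59% and 1.42% in siORCA. At 81 Mb the outer bin was at 0 in both lists, and the inner bin had 0.752% and 0.410%. Coverage in siORCA thus ended close to the limit at 47.6 Mb, where control coverage went on at a lower level.

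The 2 lists placed their peaks on partly different bases of the inner block. Bases under peaks of both lists made up 24.3% of the control length and 51.9% of the siORCA length in the inner block. At the edges these shares were 29.0% and 72.6%, and without the dense stretch and the last bin of the short-arm edge 13.5% and 41.0%. By section, the share of siORCA length covered in the control was 91.8% in the proximal edge, 50.2% in the short-arm edge and 44.3% in the distal edge. The chromosome 16 block had 64.5% of the control length and 87.0% of the siORCA length shared. It was covered over more of its length (73.4% and 54.4%), which by itself brings more shared bases. There siORCA coverage was 2.43 times denser inside control peaks than outside, against 3.46 times in the inner block. On the arms of chromosome 9 the shared parts were 12.7% and 54.5%, and coverage was 35.1 times denser inside. By number, 41.6% of the inner control peaks shared 1 bp or more with a siORCA peak (40.6 to 42.7%, Wilson 95% interval). Of the inner siORCA peaks, 62.5% did so with a control peak (61.4 to 63.7%). These intervals allow for counting error alone and take neighbouring peaks as independent. At the edges the values were 33.2% (30.6 to 35.8%) and 62.3% (59.6 to 64.8%).

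Outside control peaks, siORCA coverage of the inner block went down with distance from them. Of inner bases under a control peak, 24.3% were under a siORCA peak, against 7.01% of the other inner bases, a density 3.46 times higher inside control peaks. With distance from the nearest control peak, siORCA coverage went from 10.6% at 1 to 500 bp to 6.81% at 501 to 1000 bp, 4.12% at 2001 to 5000 bp and 2.63% beyond 5000 bp. On the arms of chromosome 9 the decline was steeper, from 12.7% inside control peaks to 4.45% at 1 to 500 bp and 0.130% beyond 5000 bp. The values outside control peaks include the ends of siORCA peaks that overlap one. The 2567 inner siORCA peaks that touched no control peak lay at a median of 0.758 kb from the nearest one, and 59.3% of them within 1 kb. Control peaks in the inner block are themselves a median of 1.13 kb apart, so a short distance is common there. Of the 19.8 Mb of inner bases outside control peaks, 7.22 Mb lay at 1 to 500 bp from one and 3.55 Mb at 501 to 1000 bp. The share of 59.3% therefore does not by itself show that these siORCA peaks lay nearer than other uncovered bases. Inner bases uncovered in both lists came to 18.4 Mb, or 70.9%.

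**Figure D5:**
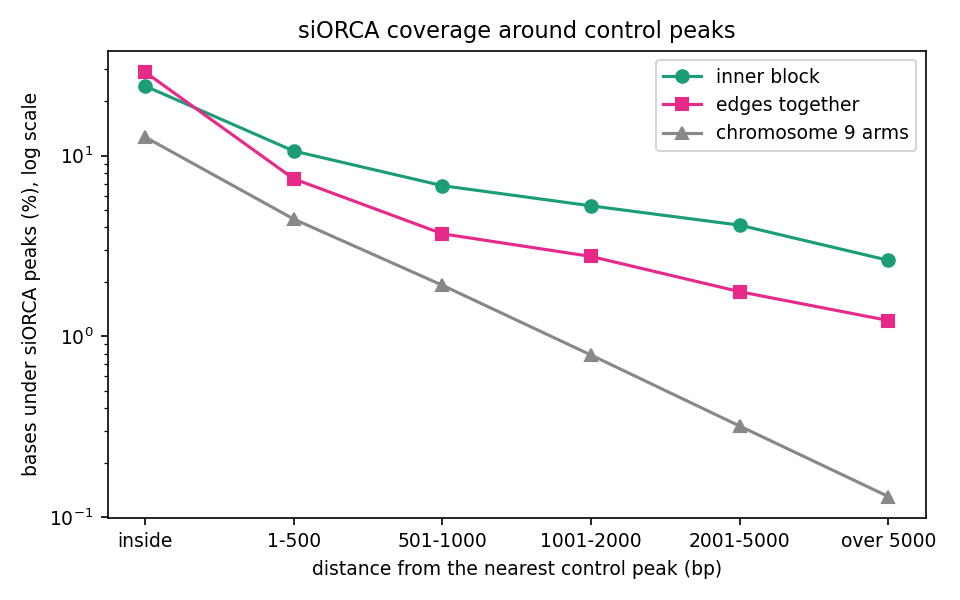
Lines give the share of bases under siORCA peaks (percent, log scale) inside control peaks and at increasing distance from the nearest one (bp), for the inner block, the edges and the arms of chromosome 9. The inner block goes from 24.3% inside to 2.63% beyond 5000 bp, and the arms from 12.7% to 0.130%.

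Wider and stronger control peaks of the inner block were shared more. Of control peaks under 250 bp wide, 26.2% overlapped a siORCA peak (2479 peaks) and 18.3% of their length was shared. Of those from 2000 to 5000 bp, 91.9% overlapped one (457 peaks) and 31.7% of their length was shared. A wide peak has more bases in which to meet another, so the share of length is the fairer measure, and it went up less. It was 16.7% at 250 to 500 bp, 18.9% at 500 to 1000 bp and 24.2% at 1000 to 2000 bp, so it rose only above 1000 bp. These shares were not set against the local siORCA coverage. At 5000 bp and above the share of length was 38.5% in the inner block (72 peaks), 39.7% at the edges (57 peaks) and 52.2% in all peaks outside the region. By the control fold, the shared length in the inner block was 17.8% at folds of 2.5 to 3, 27.1% at 3 to 3.5, 36.7% at 3.5 to 4 and 40.3% at 4 and above (231 peaks). At the edges the last 2 classes had 55.2% and 77.2% (67 and 22 peaks), and outside the region 46.8% and 93.5%. At folds of 3.5 and above, control peaks of the inner block were thus shared over less of their length than those outside. This difference was not tested. At folds of 2.5 to 3.5 the shares lay closer, and at 3 to 3.5 the share outside was 28.1%. The outside class at 4 and above held 19.4 Mb in 1328 peaks, against 0.0856 Mb in the inner block. Most control peaks of the chromosome 1 block fall in that class, since their 10th percentile of fold was 4.29. Of their length 99.4% was shared. The classes at 4 and above therefore did not compare peaks of like width.

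The folds of inner peaks ranked differently in the 2 lists. The median control fold was 2.94, above 74.2% of all control peaks, and the median siORCA fold was 3.23, above 42.7% of all siORCA peaks. The highest folds among inner peaks of at least 1 kb were 5.00 in the control, at 70708594 to 70709808, and 5.95 in siORCA, at 64735078 to 64736512. Of the former 41.4% was covered in siORCA, and of the latter 66.3% in the control. The inner siORCA peaks lay close to the threshold of their list: their median −log10 q was 1.55, against 1.73 in the whole list, and 20.5% of them reached a −log10 q of 2, against 33.6%. In the control the median was 1.96, against 1.78, and 47.9% reached 2, against 35.9%. The 2 lists thus differed in how the inner peaks ranked, high in the control and low in siORCA. With only peaks at a −log10 q of 2 or more, the ratio of covered length in the inner block was 0.134, and with only peaks at a fold of 3 or more it was 0.764.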

How the data were processed

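H3K27me3 ChIP-seq peaks from 2 libraries were used; of the 3 samples, the input was not analysed here. Formaldehyde (1%, 10 min) fixed the cells and 101 cycles were read from a single end, per the labels' protocols. T2T-CHM13 is the build, and SAMtools, Bowtie2, Trimmomatic and bcl2fastq are the tools, that the submitters' processing notes list without versions. The peak caller and its settings and background were not given in the sources used here. The deposited broadPeak lists, 1 per library, give for each peak a fold over background (a ratio), −log10 p and −log10 q values, and a score that was not used. The lowest deposited −log10 q was 1.00 in both lists. No depth is given, so no precision from depth can be stated.

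Coverage, overlap in bases, 100 kb bins and joined stretches (gaps of at most 3 kb) were computed with Python 3.11.15, numpy 2.4.6 and pandas 2.3.3, and Wilson intervals with scipy 1.17.1. Peaks within a list did not overlap on chromosome 9; 2 control peaks and 1 siORCA peak crossed a section limit and were counted by midpoint. Positions are printed from 1. The scripts gave the known answer for 7 of 7 quantities on simulated peaks. With 1 library per condition no test was made. The members, sections and comparison blocks were chosen with earlier results of these data known. For each section and list, the rule for named regions took the 3 widest peaks, the 3 highest folds among peaks of at least 1 kb, the 3 longest joined stretches, the 3 widest gaps of the inner block and the 3 bins with the largest drop and rise; the text gives those the results turn on. The other stretches named were chosen after their values had been seen. Alternatives changed the peak limits, the section limits, the bins, the overlap and the joining.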

Additional observations from a re-analysis of the deposited data

How the results depend on the processing

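Leaving out a library would leave a condition empty. No paired analysis was possible because each condition has a single library. Coverage was lower in siORCA than in the control under each limit on peaks and each choice of section limits tried, but its size depended on them, and the cause was not tested. A −log10 q of at least 2 gave ratios of covered length of 0.134 in the inner block, 0.242 at the edges and 0.166 over the region. A fold of at least 3 kept 3776 of the 8786 inner control peaks and 6302 of the 6849 inner siORCA peaks. It gave ratios of 0.764 in the inner block, 0.520 at the edges and 0.694 over the region. The inner block thus had the higher ratio at that fold and the lower one at that q, and the order between inner block (0.468) and edges (0.400) depends on the limit. Equal numbers of peaks, peaks of at least 500 bp and other section limits kept the ratios within 1.5 times.

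The number of peaks gave no stable direction. The inner ratio of 0.780 became 0.333 at that q, 1.67 at that fold, and 1.03, 1.38 and 1.51 with peaks joined at 1, 3 and 10 kb. Joining merges more control peaks because they lie closer together. The ratio at the edges, 1.02, became 0.681 at that q and 3.01 at that fold.

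The share of inner control length also in siORCA was 7.23% at that q, 27.3% at that fold and 26.4% with equal numbers. As peaks it was 41.6% (1 bp) and 16.7% (50% of length). For inner siORCA length also in the control the values were 53.9%, 35.8% and 46.4%, then 62.5% and 45.8%, and 50.6% with the inner block narrowed to 52 to 74 Mb. At the edges the share of control length was 21.3%, 35.6% and 31.6%, then 33.2% and 12.6%, and the share of siORCA length 88.3%, 68.5% and 69.3%, then 62.3% and 54.7%, and 68.1% with the narrowed block. Without the dense stretch and the last bin of the short-arm edge, an alternative chosen after seeing the data, these shares were 13.5% and 41.0%.

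The share of counted inner bins called lower, 55.3%, was 48.4% in 200 kb bins, 84.8% at 1.5-fold, 72.9% with at least 20% covered, 98.8% at that q, 12.1% at that fold and 29.5% with equal numbers. At the edges, 72.1% became 83.6% at 1.5-fold, 82.1% with at least 20% covered and 89.7% at that q, but 60% with equal numbers, 61.5% at that fold, 66.7% in 50 kb bins and 68.8% in 200 kb bins. At a fold of at least 3, 15.0% of the counted inner bins were called higher in siORCA, so the absence of such bins depends on the limit. No depth was given, so an empty siORCA stretch was not shown to lack the mark.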
